A study of Mus musculus with 3 samples.

Results

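Solute carriers (Slc genes) are the membrane proteins that bring sugars, amino acids, ions, metals, vitamins and other small solutes across the plasma membrane and the membranes of organelles. Their expression was read from sc-RNAseq of mouse colon organoids that were left untreated or exposed to IFN-γ for 24 h or 48 h. Members are the genes whose symbol starts with Slc and a number, apart from the 4 symbols Slc12a2, Slc26a3, Slc9a3 and Slc7a5, and they were selected on their measured level, a mean of at least 5 CPM (UMI counts per 1000000) over the 3 libraries. Of 376 matching symbols, 372 remained after the exclusions and 163 passed this minimum, out of 32285 features in the files and 10068 genes at the same minimum. The other 209 symbols lay below it, and 27 of them had no UMI in the cells kept. A gene below 5 CPM in both treated libraries passes only through the untreated one, so its fall is partly set by the selection. Among such members were Slc35f1, Slc40a1, Slc6a14, Slc1a1, Slc18a2 and Slc41a2. The same minimum was applied to all genes. The members belonged to 40 numbered families, 13 of which had 1 member, and all were annotated as protein coding. Despite their symbols, 3 members are not carriers (the scaffold protein gene Slc9a3r1, and Slc4a1ap and Slc7a6os, which were named for a partner or a neighbour) and they were kept because the symbols match.

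Each condition had 1 library of organoids labelled as colon epithelium and epithelial cells: untreated, IFN-γ for 24 h and IFN-γ for 48 h, with no other allele or agent in the labels. Cells needed 5000 or more UMIs (unique molecular identifiers, which count transcript molecules), 400 or more genes and no more than 15% mitochondrial UMIs, which left 1058, 917 and 2934 cells, with median depths of 33550, 68784 and 10772 UMIs and 1 to 4 cell barcodes shared between pairs of libraries. There were no replicates, so no test across samples could be made. Ratios were taken on the log2 scale to the untreated library with exact 95% intervals for counting error only, a change of at least 2-fold was a log2 ratio of at least 1 or at most −1, and both ratios share 1 untreated library. The summed level of 9 immune markers was 3.01 to 4.17 CPM and that of 10 stromal markers 1.38 to 3.51 CPM in the 3 libraries, and 4 and 6 of them were at 0 in the untreated library. As a check of the labels, Irf1, a transcription factor induced by interferons, stood at 23.5 CPM in untreated cells, 331 CPM at 24 h and 310 CPM at 48 h.

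Transport across the colon epithelium is split between cell types. Surface colonocytes absorb salt, short-chain fatty acids, residual bile acids and metals, goblet cells load secretory granules and make heavily glycosylated mucins, which needs sugar nucleotides in the Golgi, and enteroendocrine cells fill vesicles with hormones and monoamines. Dividing cells at the crypt base take up amino acids and nucleosides for growth. Amino acid exchangers such as the cystine/glutamate antiporter work as pairs of a light chain (Slc7a11, Slc7a5) and the heavy chain Slc3a2, which carries the light chain to the cell surface.

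At 24 h, solute carrier genes were mostly lower than in untreated organoids, and a larger share of them than of all genes was at least 2-fold lower. No member was at least 2-fold higher (0 of 163, where 2.35% of all genes at the same minimum were), and 31 members, or 19.0%, were at least 2-fold lower (9.96% of all genes). At 48 h, 6 members, or 3.68%, were at least 2-fold higher (3.1% of all genes) and 19, or 11.7%, were at least 2-fold lower (5.72% of all genes). The share of rises at 48 h was thus close to that of all genes. The median log2 ratio of the members was −0.48 at 24 h and −0.06 at 48 h, beside −0.25 and −0.08 over all 10068 genes, and with TMM scaling the members' median at 48 h turned to 0.02. Scaling by TMM factors moved every log2 ratio up by 0.22 at 24 h and 0.08 at 48 h, members and other genes alike, and left 22 members at least 2-fold lower at 24 h (6.52% of all genes) with 2 higher (3.34% of all genes). The summed level of the members was 7380 CPM in untreated cells, 6172 CPM at 24 h and 6690 CPM at 48 h. The mitochondrial carriers of the Slc25 family made up 2997, 3028 and 2546 CPM of these sums.

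**Figure D1:**
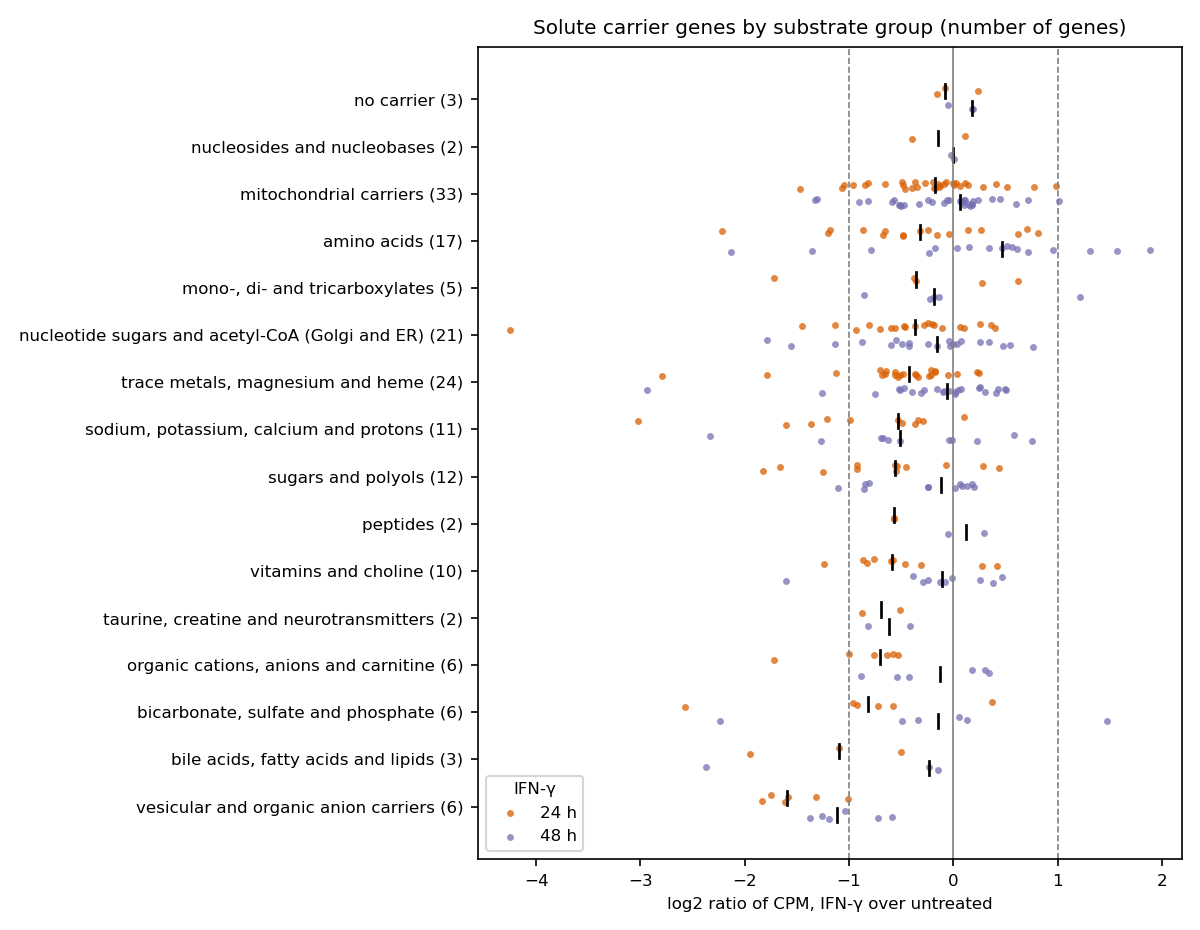
Log2 ratio of CPM to the untreated library (x axis) for each of the 163 members, grouped by main substrate (y axis, number of genes in brackets). Points are genes at 24 h (orange) and 48 h (purple), black bars are group medians, and dashed lines mark a 2-fold change. The 6 Slc17 and Slc18 genes all lie at or left of −1 at 24 h, and the amino acid carriers extend furthest to the right at 48 h.

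Groups by substrate differed in their medians, while the counts past 2-fold in several groups lay near the share of all genes. Of all genes at the same minimum, 9.96% were at least 2-fold lower at 24 h and 5.72% at 48 h. At least 2-fold higher were 2.35% and 3.1% of them. The 6 genes of the Slc17 and Slc18 families, which mainly load vesicles with nucleotides, monoamines and polyamines or move organic anions, were all at least 2-fold lower at 24 h, around a median of −1.60, and 4 of the 6 were at least 2-fold lower at 48 h, around a median of −1.11. Among 33 mitochondrial carriers 3 were at least 2-fold lower at 24 h, and the median was −0.18, above that of all genes, and 0.04 with TMM scaling. The 17 amino acid carriers had 3 genes at least 2-fold lower at 24 h and none higher, but at 48 h 3 were at least 2-fold higher, 2 lower and the median was 0.47. In the 21 Golgi and ER carriers for sugar nucleotides and acetyl-CoA 3 genes were at least 2-fold lower at each time. Of 24 carriers for trace metals, magnesium and heme 3 were at least 2-fold lower at 24 h and 2 at 48 h, and of 11 carriers for sodium, potassium, calcium and protons 4 and 2. Among 12 sugar and polyol carriers 3 and 1 were, among 10 vitamin and choline carriers 1 and 1, and among 6 carriers for bicarbonate, sulfate and phosphate 1 and 1. The remaining groups had 2 to 6 genes each.

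**Figure D2:**
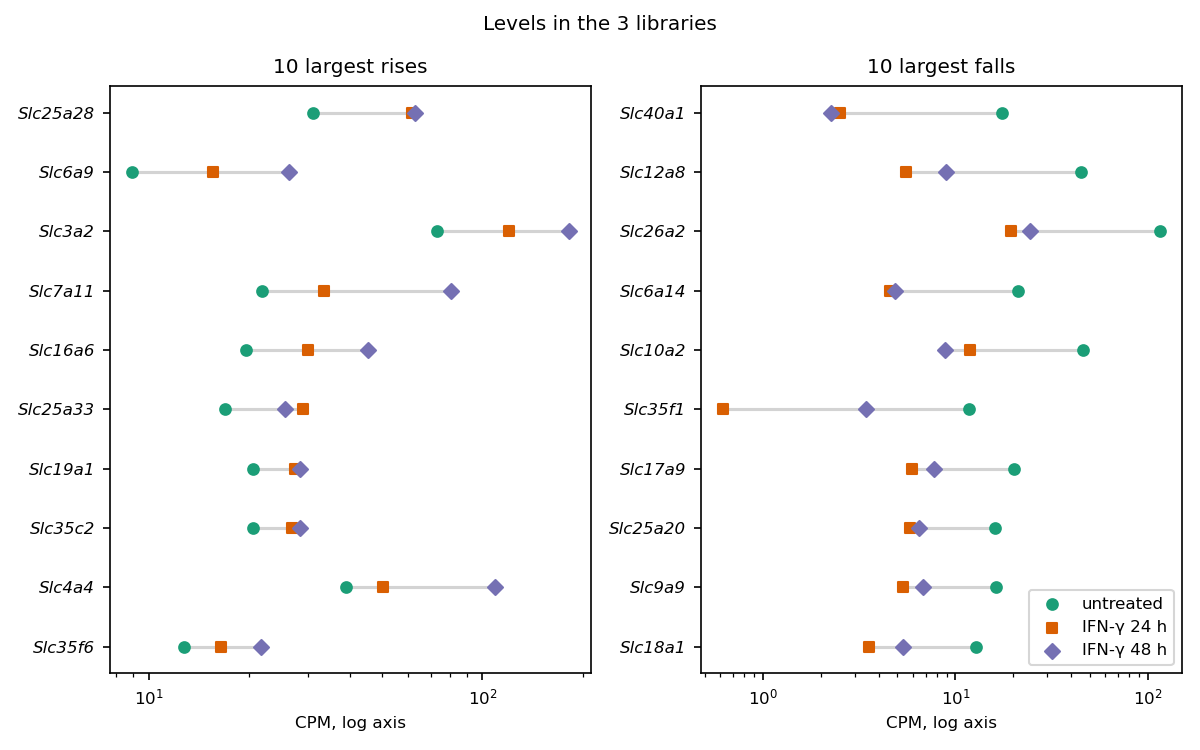
CPM on a log axis (x axis) of the 10 members with the largest rises (left) and the 10 with the largest falls (right), ranked by the smaller of the 2 log2 ratios. Circles are the untreated library, squares IFN-γ 24 h and diamonds IFN-γ 48 h, with 1 library each and no error bars. Slc3a2, Slc7a11 and Slc4a4 were higher at 48 h than at 24 h, while Slc25a28 was at the same level at both times.

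Of the 6 members at least 2-fold higher at 48 h, 3 were amino acid carriers, where 3.1% of all genes were at least 2-fold higher. At 24 h, 5 of the 17 amino acid carriers were higher than in untreated cells and 12 lower, with a median of −0.32. Most of all genes at the same minimum were lower too, with 3157 higher and 6903 lower and a median of −0.25. Slc7a11 (ENSMUSG00000027737, chromosome 3, 49892526 to 50443614, minus strand, GRCm38) encodes the light chain of the cystine/glutamate antiporter, which supplies cysteine for glutathione. Its level was 21.8 CPM in untreated cells, 33.6 CPM at 24 h and 80.6 CPM at 48 h, so it was highest at 48 h. Against untreated cells this gave log2 ratios of 0.62 (interval 0.52 to 0.73) and 1.89 (interval 1.79 to 1.99), the largest rise of any member at 48 h. Its heavy chain Slc3a2 (ENSMUSG00000010095, chromosome 19, 8706882 to 8723369, minus strand, GRCm38) had 73.2, 120 and 182 CPM in the untreated, 24 h and 48 h library, with log2 ratios of 0.71 (interval 0.66 to 0.77) and 1.31 (interval 1.26 to 1.37). The excluded light chain Slc7a5, which pairs with Slc3a2 for large neutral amino acids, had 47.4, 69.2 and 91.5 CPM. Slc7a11, Slc7a5 and Slc3a2 were thus each lowest in the untreated and highest in the 48 h library. This did not hold for Slc7a7, another light chain, which had its highest level in the untreated library. Slc7a6 of the same family had log2 ratios of −0.48 at 24 h and 0.15 at 48 h. The glycine transporter gene Slc6a9 had 8.90, 15.6 and 26.4 CPM, with log2 ratios of 0.81 and 1.57. Among carriers that did not reach 2-fold, the cationic amino acid transporter Slc7a1 had 80.3, 96.3 and 156 CPM and the neutral amino acid exchanger Slc1a5 87.6, 96.7 and 144 CPM.

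The group also held falls. Slc6a14, a concentrative transporter of neutral and basic amino acids, had 21.2 CPM in untreated cells, 4.57 CPM at 24 h and 4.85 CPM at 48 h, or log2 ratios of −2.21 (interval −2.40 to −2.03) and −2.13 (interval −2.34 to −1.92). The glutamate transporter Slc1a1 had 10.7, 4.69 and 4.19 CPM, and Slc7a7, a light chain for basic amino acid exchange, 45.8, 20.2 and 26.5 CPM. Slc6a14 and Slc1a1 passed the minimum level only through the untreated library, so a fall was needed for them to be members. Slc38a2, the amino acid carrier with the highest level, had 224, 142 and 190 CPM and did not reach 2-fold. Slc38a2 and its paralog Slc38a1, with 106, 84.9 and 108 CPM, lie 44478 bases apart on chromosome 15.

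The upstream DNA of Slc7a11 and of Slc25a28 is shown because these genes had the largest log2 ratio at 48 h and at 24 h. It is the 200 bases before the annotated start, 5′ to 3′ on the strand of the gene, from RefSeq on GRCm38.p6, with capitals where a motif was found.
Slc7a11 (chr3:50443614-50443813, minus strand): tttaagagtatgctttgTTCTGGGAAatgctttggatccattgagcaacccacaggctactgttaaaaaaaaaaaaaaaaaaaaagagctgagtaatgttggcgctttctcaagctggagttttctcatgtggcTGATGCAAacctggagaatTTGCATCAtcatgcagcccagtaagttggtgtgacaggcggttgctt
Slc25a28 (chr19:43674882-43675081, minus strand): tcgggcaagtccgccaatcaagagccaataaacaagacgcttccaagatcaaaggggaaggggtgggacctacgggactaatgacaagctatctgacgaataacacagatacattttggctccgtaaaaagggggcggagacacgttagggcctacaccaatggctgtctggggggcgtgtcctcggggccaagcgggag
The motifs searched on both strands were a GAS-like motif (TTCNNNGAA, the form of gamma-activated sites), an ISRE-like motif (GAAA, any 2 bases, GAAA) and a CARE-like motif (TGATGNAA, the form bound by ATF4 with C/EBP factors). The last was added after the values of Slc7a11 had been seen. Slc7a11 had 1 GAS-like match starting 183 bases before the start and 2 CARE-like matches 66 and 47 bases before it, in opposite orientations, and no ISRE-like match. Slc25a28 had none of the 3 motifs in this stretch. Of all 32851 promoter windows of 300 bases (250 before and 50 after the start), 8.30% held the GAS-like, 3.44% the ISRE-like and 3.97% the CARE-like motif. Windows were found for 125 of the 163 members. Of their 167 windows, 5.39%, 1.80% and 4.19% held the 3 motifs, so none of these shares lay far above that of all windows. A match is a description of the letters and does not show binding.

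Genes that act beside the carriers (pump subunits, chaperones, iron and zinc binding proteins, kinases and the amino acid response) were read from a list of partner genes. It held 25 symbols, of which 24 were among the features and 21 passed 5 CPM. At 24 h 3 of these 21 were at least 2-fold higher (2.35% of all genes) and none lower (9.96% of all genes). At 48 h 4 were higher (3.1% of all genes) and none lower (5.72% of all genes). The medians were 0.07 and 0.05. The list was chosen with earlier results of these data known, so its counts are not a neutral comparison with all genes. The higher genes were Trib3, Chac1 and the metallothionein gene Mt2 at both times and the kinase gene Stk39 at 48 h. Among the amino acid response genes, Trib3, a pseudokinase that ATF4 induces, had 4.08 CPM in untreated cells, 21.3 CPM at 24 h and 29.7 CPM at 48 h, or log2 ratios of 2.38 and 2.86. Trib3 was below 5 CPM in untreated cells and passed the minimum only through the treated libraries, so its rise was partly set by the selection. Chac1, which degrades glutathione, had 8.19, 25 and 23.6 CPM. Atf4 itself had 113, 196 and 212 CPM and the asparagine synthetase gene Asns 127, 220 and 241 CPM, below 2-fold at both times. Ddit3 had 8.49, 8.08 and 9.80 CPM, a level at 24 h within counting error of the untreated library.

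Metal carriers moved in both directions. Slc25a28 (ENSMUSG00000040414, chromosome 19, 43663801 to 43674881, minus strand, GRCm38), the mitochondrial iron importer mitoferrin-2, had 31.1, 61.6 and 62.8 CPM, or log2 ratios of 0.99 (interval 0.90 to 1.07) and 1.02 (interval 0.93 to 1.11), and was placed with the mitochondrial carriers. Its paralog Slc25a37 had 26.7, 23.4 and 28.9 CPM, with log2 ratios of −0.19 and 0.11. The opposite was found for Slc40a1 (ENSMUSG00000025993, chromosome 1, 45908068 to 45926523, minus strand, GRCm38), ferroportin, which exports iron from cells. It had 17.4 CPM in untreated cells, 2.50 CPM at 24 h and 2.26 CPM at 48 h, or log2 ratios of −2.80 (interval −3.04 to −2.56) and −2.94 (interval −3.24 to −2.65), and was the member with the largest fall at 48 h. The intestinal iron importer Slc11a2 had 27.4, 18.6 and 26.7 CPM. Of the partner list, the transferrin receptor gene Tfrc had 200, 123 and 153 CPM and the ferritin gene Fth1 1223, 1137 and 1051 CPM, both below 2-fold. Slc39a8, a zinc and manganese importer, had 32.4, 14.9 and 24.6 CPM. The magnesium carrier Slc41a2, the member nearest the minimum level, had 8.94, 2.59 and 3.75 CPM. Slc40a1 and Slc41a2 passed the minimum level only through the untreated library, so a fall was needed for them to be members. All 6 zinc exporters of the Slc30 family were lower at 24 h by less than 2-fold, with a median of −0.29 that was close to that of all genes and was −0.07 with TMM scaling, and 4 of the 6 were higher at 48 h.

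Ion and bile acid carriers were among the largest falls. Slc26a2, a sulfate transporter, had 116 CPM in untreated cells, 19.4 CPM at 24 h and 24.5 CPM at 48 h, with log2 ratios of −2.57 (interval −2.66 to −2.49) and −2.24 (interval −2.33 to −2.15). Slc10a2, the apical sodium-dependent bile acid transporter (ENSMUSG00000023073, chromosome 8, 5083219 to 5105351, minus strand, GRCm38), had 46.0, 11.9 and 8.87 CPM, with log2 ratios of −1.95 and −2.37. Slc12a8, a member of the cation-chloride cotransporter family (ENSMUSG00000035506, chromosome 16, 33517328 to 33664135, GRCm38), had 45.1, 5.54 and 8.97 CPM, with log2 ratios of −3.02 (interval −3.18 to −2.87) and −2.33 (interval −2.48 to −2.18). Slc4a4, the electrogenic sodium-bicarbonate cotransporter, went the other way, with 39.1, 50.4 and 109 CPM and log2 ratios of 0.37 and 1.48. Slc4a7, another sodium-bicarbonate cotransporter and the highest of its group, had 165, 87.4 and 131 CPM. The endosomal sodium/proton exchanger Slc9a9 had 16.3, 5.35 and 6.77 CPM, or log2 ratios of −1.61 and −1.26. The excluded carriers Slc26a3, Slc9a3 and Slc12a2 had 62.0, 7.85 and 537 CPM in untreated cells and 7.16, 0.59 and 215 CPM at 24 h. Their log2 ratios were −3.11, −3.73 and −1.32 at 24 h and −2.52, −3.29 and −0.54 at 48 h.

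Vesicular carriers fell at 24 h without exception. Slc17a9, the vesicular nucleotide transporter, had 20.04 CPM in untreated cells, 5.97 CPM at 24 h and 7.73 CPM at 48 h, and Slc18a1, a vesicular monoamine transporter of endocrine cells, had 12.8, 3.57 and 5.33 CPM. Their log2 ratios were −1.75 and −1.84 at 24 h and −1.38 and −1.26 at 48 h. The related Slc18a2 had 8.25, 2.70 and 4.995 CPM, the polyamine carrier Slc18b1 13.7, 5.49 and 5.97 CPM, Slc17a4 14.9, 4.97 and 7.24 CPM, and the lysosomal sialic acid exporter Slc17a5 21.3, 10.6 and 14.1 CPM. Slc17a5 was nearest to the 2-fold line at 24 h, with a log2 ratio of −1.01. With TMM scaling Slc17a5 was not past this line, and 5 of the 6 genes were at least 2-fold lower. Slc18a2 passed the minimum level only through the untreated library, so its fall was partly set by the selection.

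Of the 21 Golgi and ER carriers, the 3 that were at least 2-fold lower were the same at both times, Slc35a3, Slc35a1 and Slc35f1, beside 9.96% of all genes at 24 h and 5.72% at 48 h. Other carriers of sugar nucleotides did not reach 2-fold, such as Slc35a2, which imports UDP-galactose, with 31.5, 20.8 and 21.5 CPM, and the GDP-fucose carrier Slc35c1, with 24.9, 19.3 and 16.5 CPM. Slc35a3, which imports UDP-N-acetylglucosamine, had 119, 43.4 and 54.1 CPM in the untreated, 24 h and 48 h library, and Slc35a1, which imports CMP-sialic acid, 95.3, 43.4 and 32.4 CPM. Their log2 ratios were −1.45 and −1.13 at 24 h and −1.14 and −1.56 at 48 h. Slc35f1, an orphan member of the family, had 11.8, 0.62 and 3.43 CPM from 587, 44 and 162 UMIs, and its log2 ratio of −4.25 (interval −4.73 to −3.81) at 24 h was the lowest of any member. At 48 h it was −1.78 (interval −2.04 to −1.53). Slc35f1 passed the minimum level only through the untreated library, so a fall was needed for it to be a member. By contrast, Slc35c2 had 20.5, 27.0 and 28.4 CPM and Slc35f6 12.8, 16.4 and 21.7 CPM, both among the 10 largest rises though below 2-fold.

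In the mitochondrial family, the genes with the highest levels changed little. Slc25a3, the phosphate carrier, had 932, 952 and 744 CPM, and Slc25a5, an ADP/ATP carrier, 843, 848 and 569 CPM, both lower at 48 h by less than 2-fold. The other ADP/ATP carrier, Slc25a4, had 196, 281 and 209 CPM, and reads could be divided between these close paralogs. Slc25a39, a carrier of glutathione, had 154, 166 and 163 CPM. Slc25a20, which imports acylcarnitines for fatty acid oxidation, had 16.0, 5.80 and 6.48 CPM, with log2 ratios of −1.47 and −1.31, and the ATP-Mg/phosphate carrier Slc25a24 had 73.0, 34.9 and 29.2 CPM. Slc25a36 and Slc25a33, both pyrimidine nucleotide carriers, had 50.2, 24.4 and 35.2 CPM and 16.9, 28.9 and 25.6 CPM, and so moved in opposite directions. The citrate carrier Slc25a1 had 105, 129 and 174 CPM.

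Sugar, carboxylate and vitamin carriers gave single examples of larger change. Slc5a9, a sodium-coupled sugar transporter, had 14.4, 4.05 and 6.69 CPM, and the myo-inositol carriers Slc2a13 and Slc5a3 had 39.1, 12.4 and 22.3 CPM and 24.1, 10.1 and 13.4 CPM. The main glucose transporter gene Slc2a1 had 60.8, 57.8 and 51.4 CPM and thus moved little. Slc16a6, of the monocarboxylate transporter family, had 19.6, 30.1 and 45.5 CPM, with log2 ratios of 0.62 and 1.22, whereas Slc16a4 had 15.6, 4.76 and 8.66 CPM. Slc16a1, which carries lactate and butyrate, had 64.6, 50.6 and 55.2 CPM. Slc44a4, a colonic carrier of thiamine pyrophosphate, had 51.4, 21.8 and 16.9 CPM, with log2 ratios of −1.24 and −1.60, and the reduced folate carrier Slc19a1 had 20.6, 27.5 and 28.5 CPM.

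The smaller groups were mostly lower at 24 h, as were most genes at the same minimum, and at 48 h their medians were mostly nearer to untreated levels. The taurine and creatine carriers stayed lower, with medians of −0.69 at 24 h and −0.61 at 48 h, and Slc10a2 was lower at 48 h than at 24 h. All 6 organic cation, anion and carnitine carriers were lower at 24 h, around a median of −0.70, but only the orphan Slc22a23 was past 2-fold, with 66.3 CPM in untreated cells, 20.1 CPM at 24 h and 36 CPM at 48 h. The carnitine importer Slc22a5 had 7.17, 4.61 and 9.10 CPM in the 3 libraries, so its order turned between the times. In the bile acid and lipid group, Slc10a7 had 91.7, 42.8 and 78.3 CPM beside the larger fall of Slc10a2. The taurine transporter Slc6a6 had 70.8, 49.7 and 53.2 CPM and the creatine transporter Slc6a8 16, 8.75 and 9.10 CPM. Of the peptide carriers, the lysosomal Slc15a4 had 15.1, 10.2 and 14.5 CPM, and the nucleoside transporter Slc29a1, which brings adenosine and other nucleosides into cells, had 27.3, 29.5 and 26.9 CPM. The levels of Slc29a1 lay within 0.11 of the untreated library on the log2 scale at both times. Among vitamin and choline carriers, the choline transporter-like gene Slc44a1 had the highest level, with 155, 87.6 and 127 CPM, and the vitamin C transporter Slc23a2 had 25.2, 16.95 and 30.2 CPM. Zinc importers of the Slc39 family included Slc39a7, which releases zinc from the ER, with 54.3, 64.5 and 65.1 CPM, and the intestinal importer Slc39a4, with 52.01, 32.4 and 54.7 CPM.

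At the minimum level, the members just inside were Slc41a2 (mean 5.09 CPM), Slc16a13 (mean 5.15 CPM) and Slc39a13 (mean 5.23 CPM). Slc2a8, Slc7a4 and Slc31a2 lay just outside, with means of 4.66, 4.66 and 4.56 CPM.

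Levels by cell state were read from clusters of the integrated libraries, which were formed without any Slc gene among the variable genes. Cluster 3, led by Krt20 and Car1, was colonocyte-like (131, 71 and 179 cells in the untreated, 24 h and 48 h library), clusters 4 (64, 32 and 152 cells, led by Kcnma1) and 5 (73, 48 and 89 cells, led by Spink4 and Tff3) were goblet-like, and cluster 7 (30, 12 and 21 cells) was enteroendocrine-like. Cluster 0 (341, 180 and 1351 cells) had 9 stem markers above the other cells and cluster 1 (269, 416 and 811 cells), led by histone genes, had 10 proliferating markers above, but both stayed unnamed, as did cluster 2 (115, 85 and 268 cells), led by Stox2. The median depth of cluster 0 was 15397, 15090 and 7274 UMIs, well below that of cluster 1 with 73007, 91748 and 24484 UMIs. Goblet-like cluster 4 also had low depth, with 14350.5, 14728 and 7462 UMIs beside 62514, 73694.5 and 20770 UMIs in goblet-like cluster 5. In the whole libraries, the summed colonocyte markers were 2697, 1109 and 981 CPM and the summed goblet markers 3209, 1034 and 727 CPM. The 29 members with their highest untreated level in the colonocyte-like cluster had median log2 ratios of −0.56 at 24 h and −0.47 at 48 h. For the 37 members highest in goblet-like cluster 4 the medians were −0.65 and −0.09. For the 19 members highest in goblet-like cluster 5 they were 0.06 and 0.06, so these did not move down with the goblet markers. Medians like those of the colonocyte-like cluster were also found for the 7 members highest in cluster 2, at −0.60 and −0.52. They were −0.57 and 0.03 for the 15 of the enteroendocrine-like cluster, −0.39 and 0.02 for the 54 of cluster 0, and 0.38 and 0.28 for the 2 of cluster 1. Stem markers summed to 1437, 824 and 1288 CPM and proliferating markers to 2419, 2709 and 2287 CPM. Enteroendocrine markers summed to 204, 279 and 84.0 CPM, with 6 of the 12 higher and 6 lower at 24 h, and 2 higher and 10 lower at 48 h. The enteroendocrine-like cluster held 1.13%, 0.49% and 0.48% of the UMIs of the 3 libraries. Slc18a1 and Slc9a9, which are highest in those cells, were lower at both times. Cluster 1 held 44.0%, 61.8% and 46.7% of the UMIs of the untreated, 24 h and 48 h library. The part of these shifts in the results was not tested, though counts with cluster shares held at the untreated library are given below.

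**Figure D3:**
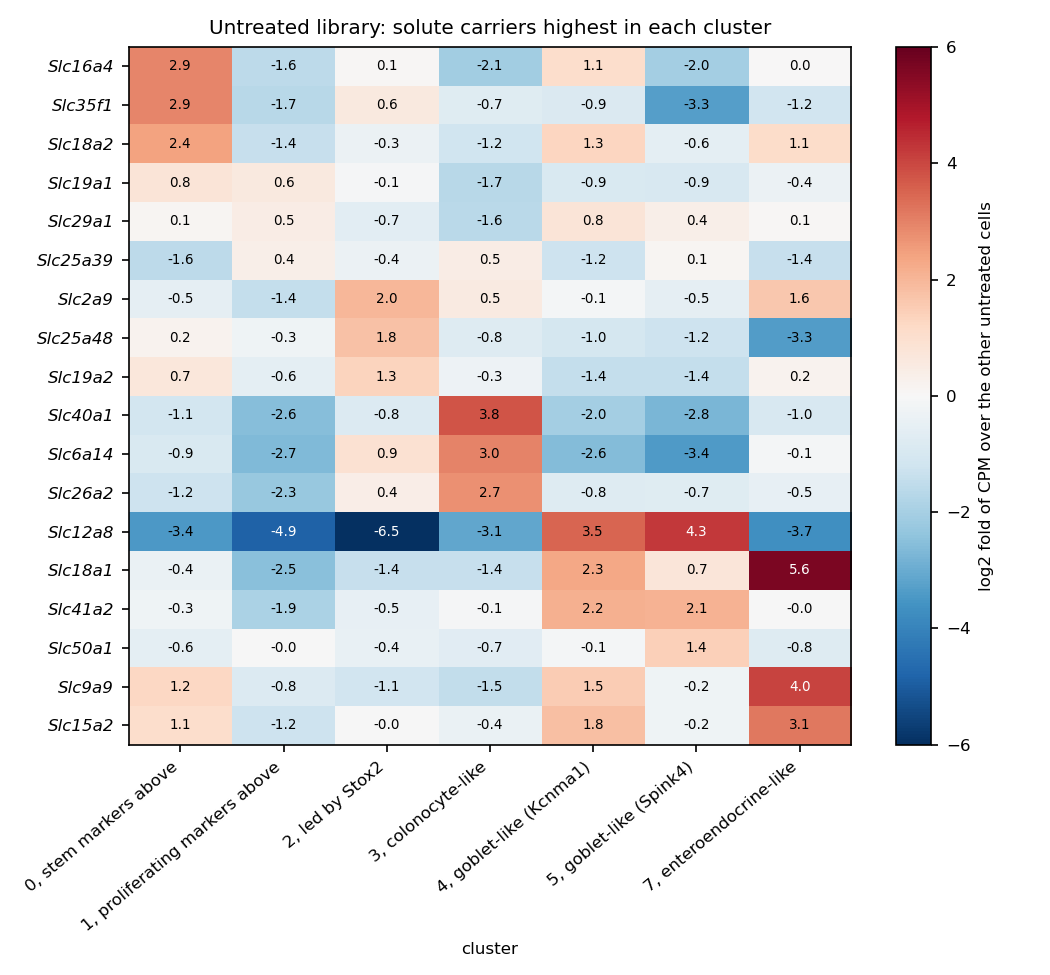
Log2 fold of CPM in each cluster over the other untreated cells (colour and printed value) for the 3 members with the largest fold in each of 7 clusters. Slc40a1, Slc6a14 and Slc26a2 were highest in the colonocyte-like cluster, Slc12a8 in the goblet-like clusters, and Slc18a1 and Slc9a9 in the enteroendocrine-like cluster.

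In untreated organoids, several members stood highest in 1 cell state. Slc40a1 stood at 82.7 CPM in the colonocyte-like cluster and at 2.83 to 10.4 CPM in the other 6, a log2 fold of 3.76 over the other untreated cells. Slc12a8 stood at 395 and 294 CPM in the goblet-like clusters 4 and 5 and at 0.56 to 5.99 CPM elsewhere, below the 8.70 CPM of barcodes with fewer than 2000 UMIs, which serve as a measure of free RNA. It was the gene ranked after Kcnma1 in cluster 4, although it took no part in the clustering. Slc18a1 stood at 409 CPM and Slc9a9 at 228 CPM in the enteroendocrine-like cluster, log2 folds of 5.64 and 4.04, and the peptide transporter Slc15a2 at 63.7 CPM from 36 UMIs. All of them were also above the other untreated cells in goblet-like cluster 4, with log2 folds of 2.32 for Slc18a1, 1.52 for Slc9a9 and 1.79 for Slc15a2. In cluster 0, Slc16a4 with 64.8 CPM, Slc35f1 with 48.4 CPM and Slc18a2 with 28.1 CPM had log2 folds of 2.94, 2.91 and 2.40. In cluster 2, the urate and sugar carrier Slc2a9 had 21.6 CPM and Slc25a48 95 CPM. Cluster 1 had no member far above the other cells, and its largest log2 fold was that of the folate carrier Slc19a1, at 0.57.

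The untreated level of 100 of the 163 members, or 61.3%, was highest in a colonocyte-like, goblet-like or enteroendocrine-like cluster. That of 9 of the 10 largest falls was too, a description from which nothing particular to the falls is read. These kinds are clusters 3, 4, 5 and 7 of the 7 compared. The same share over all genes was not computed, so no preference of the members for these clusters is read from it. Cluster 0 held the highest untreated level of 54 members and goblet-like cluster 4 that of 37. Both clusters had low depth. So did enteroendocrine-like cluster 7, which held the highest level of 15 members and had an untreated median of 11498.5 UMIs. The part of depth in these counts was not tested. Of the 10 largest falls, Slc40a1, Slc26a2, Slc6a14, Slc10a2 and Slc25a20 were highest in the colonocyte-like cluster, Slc12a8 and Slc17a9 in goblet-like cluster 4, Slc9a9 and Slc18a1 in the enteroendocrine-like cluster, and Slc35f1 in cluster 0. When the clusters of each treated library were weighted to their shares in the untreated library, 26 members were at least 2-fold lower at 24 h (7.05% of all genes) and 20 at 48 h (5.53% of all genes), beside 31 and 19 without this weighting.

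Within clusters, the colonocyte-like cells had the highest share of members at least 2-fold lower at 24 h among the 5 clusters with over 150 members measured. This was 54 of 163 members or 33.1% (15.2% of all genes) at 24 h and 24 or 14.7% (6.92% of all genes) at 48 h. In goblet-like cluster 5 it was 34 of 159 or 21.4% (14.6% of all genes) and 14 or 8.81% (7.48% of all genes). The share of members was above that of all genes in each of these comparisons, though by little in cluster 5 at 48 h. In cluster 0, 16 of 163 members or 9.82% (5.81% of all genes) and 24 or 14.7% (7.64% of all genes) were at least 2-fold lower. In cluster 1 it was 22 of 163 or 13.5% (5.88% of all genes) and 16 or 9.82% (5.18% of all genes). In cluster 2 it was 29 of 162 or 17.9% (9.29% of all genes) and 18 or 11.1% (5.26% of all genes). Clusters are not replicates of a treatment, since all come from the same 3 libraries, and free RNA of 1 cell type can reach the others.

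**Figure D4:**
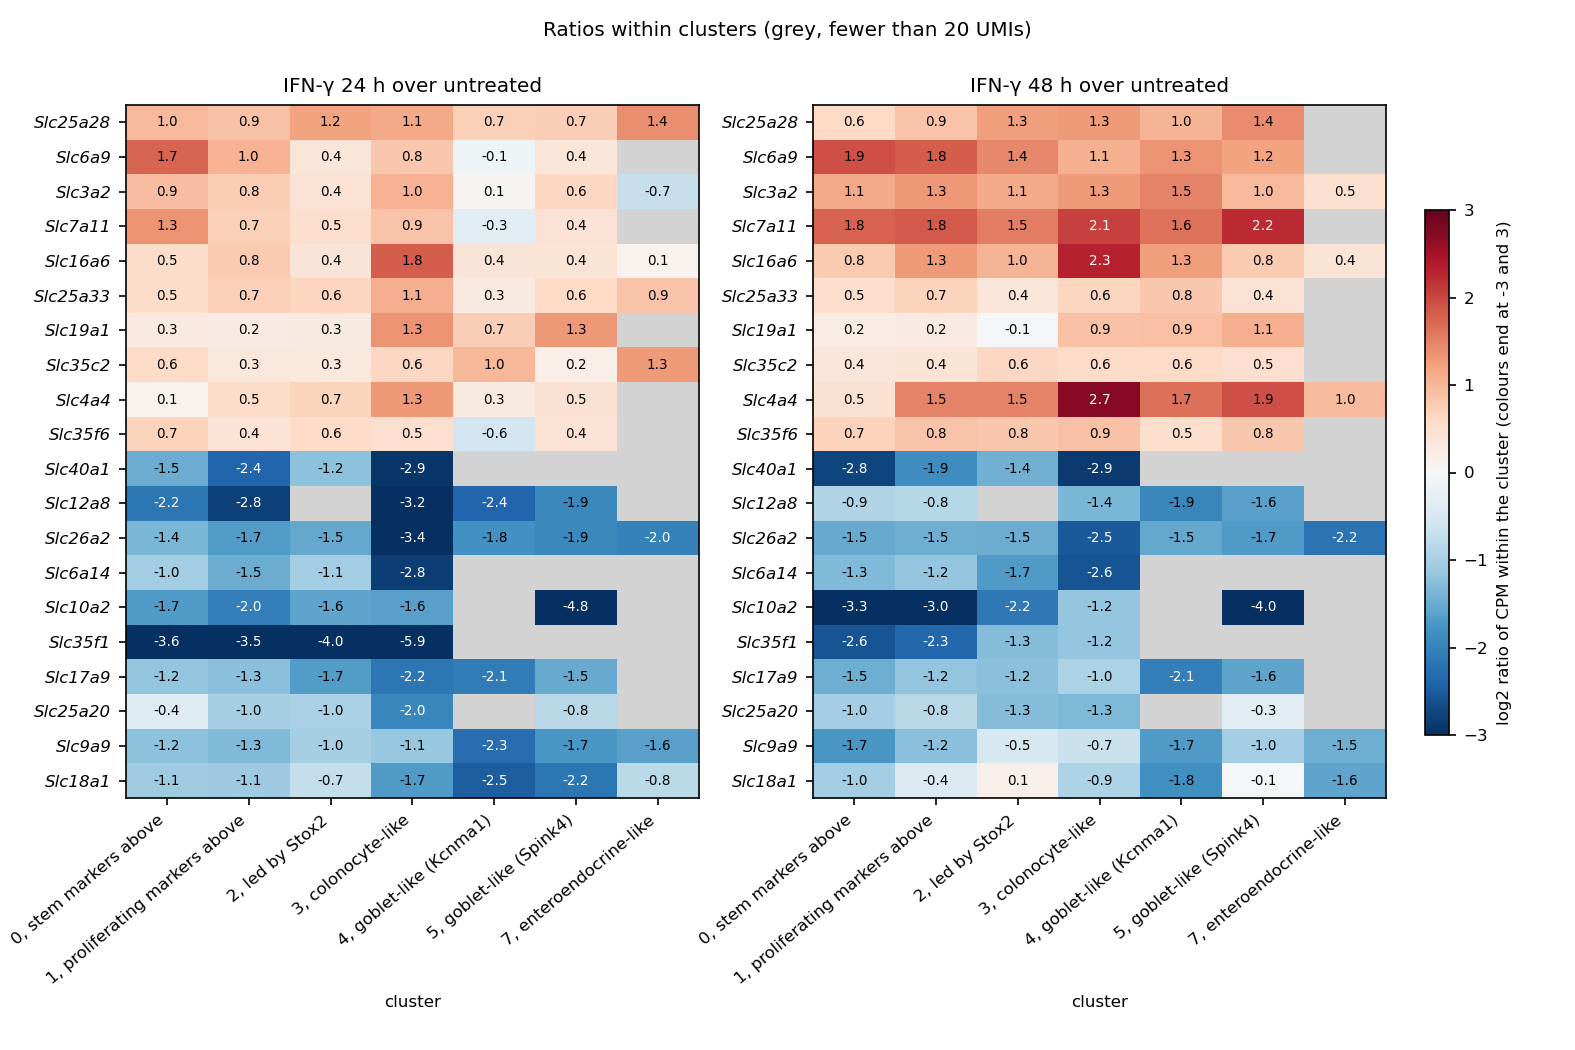
Log2 ratio of CPM to untreated cells of the same cluster (colour and printed value) at 24 h (left) and 48 h (right) for the 10 largest rises and 10 largest falls. The 7 clusters are on the x axis, and grey marks fewer than 20 UMIs over both libraries together. Slc25a28 was higher in each cluster measured, and the falls were found in each cluster measured at 24 h.

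Named members kept to a direction in nearly all clusters. They were chosen by their ratios over all cells, of which the clusters are parts, so a shared direction was partly built in. Outside clusters 4 and 5, untreated Slc12a8 lay below its level in background barcodes, so its falls there cannot be told apart from free RNA. At 24 h the 10 largest falls were lower in each cluster in which they had at least 20 UMIs, and at 48 h the 1 exception was Slc18a1 in cluster 2, with a log2 ratio of 0.15. Slc25a28 was higher in all 7 clusters measured at 24 h, with log2 ratios of 0.73 to 1.39, and in all 6 at 48 h, with 0.61 to 1.41. The 1.39 was found in the enteroendocrine-like cluster, from 8 untreated and 13 treated UMIs (interval 0.006 to 2.86). Slc7a11 was higher in 5 of 6 clusters at 24 h and in 6 of 6 at 48 h, where its log2 ratio was 1.52 to 2.23. Slc3a2 was lower at 24 h in the 12 enteroendocrine-like cells, with a log2 ratio of −0.69 (interval −1.59 to 0.15) from 44 and 17 UMIs. It was higher in the other 6 clusters, by as little as 0.07 (interval −0.40 to 0.54) in goblet-like cluster 4. Both of these values lay within counting error of no change. By substrate group, the median of the 6 Slc17 and Slc18 genes at 24 h was −1.02 in cluster 0, −1.12 in cluster 1, −1.44 in cluster 2, −1.73 in the colonocyte-like cluster, −2.29 in goblet-like cluster 4 and −1.63 in cluster 5, and −0.72 over the 2 genes measured in the enteroendocrine-like cluster. The median of the amino acid carriers at 48 h was 0.02 in cluster 0, 0.53 in cluster 1, 0.54 in cluster 2, 0.25 in the colonocyte-like cluster, 0.17 in cluster 4 and 0.38 in cluster 5, over 15 to 17 genes, and −0.27 over 10 genes in the enteroendocrine-like cluster. The median of the vesicular group was thus below 0 at 24 h in all 7 clusters, and that of the amino acid group above 0 at 48 h in 6 of the 7. A median below 0 at 24 h was shared by all genes, with −0.37 to −0.11 over the 7 clusters, and by all members, with −0.64 to −0.16. At 48 h the median of all genes was −0.25 to 0.03.

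In colonocyte-like cells, several carriers that were highest there without treatment, namely Slc26a2, Slc40a1, Slc6a14 and Slc10a2, were lower at both times, and their fold over the other cells of the same library took different courses. Slc26a2 had 420 CPM in untreated colonocyte-like cells, 38.5 CPM at 24 h and 73.8 CPM at 48 h, and Slc40a1 82.7, 11 and 11.4 CPM. Slc6a14 had 82.7, 11.6 and 13.7 CPM and Slc10a2 123, 39.8 and 55.1 CPM. The log2 fold of colonocyte-like cells over the other cells was 2.74 in the untreated, 1.17 in the 24 h and 1.88 in the 48 h library for Slc26a2, 3.76, 2.90 and 2.97 for Slc40a1, and 2.97, 1.65 and 1.76 for Slc6a14. For Slc10a2 it was 1.90, 2.23 and 3.54, and its level in the other cells was 32.8, 8.49 and 4.75 CPM. These 4 carriers were thus still higher in colonocyte-like cells than in the other cells of each treated library. The following genes were singled out after their values were seen. The phosphate importer Slc20a1 had 121 CPM in untreated colonocyte-like cells against 11.6 to 37.4 CPM in the other 6 clusters, and 16.9 CPM at 24 h and 30.5 CPM at 48 h. The iron importer Slc11a2 had 67.1, 15.9 and 24.8 CPM there, and 15.9 to 29.1 CPM in the other untreated clusters. Their log2 folds over the other cells of the same library were 2.26, −0.28 and 0.14 for Slc20a1 and 1.71, −0.25 and −0.11 for Slc11a2, so both were near the level of the other cells after treatment. Slc4a4 was higher in the same treated cells, with 22.2, 54.3 and 148 CPM in the untreated, 24 h and 48 h library, and at 48 h reached the level of cluster 0, which had 109, 117 and 149 CPM. Slc16a6 had 6.54, 23.0 and 32.6 CPM in colonocyte-like cells.

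Several carriers that were highest in secretory cells without treatment were lower there at both times, while others moved less or were near the untreated level at 48 h. Slc12a8 had 294 CPM in untreated cells of goblet-like cluster 5, 77.0 CPM at 24 h and 95.2 CPM at 48 h, and 395, 76.4 and 102 CPM in cluster 4. It thus stayed far above the level in other clusters in the treated libraries as well. In the enteroendocrine-like cells, of which there were 30, 12 and 21, Slc18a1 had 409, 233 and 136 CPM and Slc9a9 228, 74.0 and 83.2 CPM. Slc15a2 in the same cells had 63.7, 14.2 and 61.3 CPM, and Slc50a1 in goblet-like cluster 5 had 155, 140 and 114 CPM. Outside the secretory cells, Slc35f1 in the unnamed cluster 0 had 48.4, 3.92 and 7.99 CPM. The fall of this gene over all cells was thus also present where its untreated level was highest. Slc16a4 in the same cluster had 64.8, 26.7 and 20.1 CPM.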

How the data were processed

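Colon organoid cells were measured by droplet sc-RNAseq with 3′ chemistry in 3 libraries, 1 per condition. Per the labels, the authors used Cell Ranger 6.0.1 and the mm10 genome. The deposited values are raw UMI counts per gene and barcode without normalization, and the annotation release is not given in the sources used here. Background barcodes were still in the files.

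Cells needed 5000 or more UMIs, 400 or more genes and no more than 15% mitochondrial UMIs, which left 49801935, 71077817 and 47243500 UMIs, and doublets were kept with no caller run. Counts were summed per library, scaled to CPM and compared as log2 ratios with exact conditional binomial intervals (95%, counting error only, scipy 1.17.1). Since each condition has 1 library, no test was made. In background counts and in clusters, a sum of 0 was set to 3 counts, per group of cells. The calculation was checked on simulated data.

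Clusters came from CCA integration (Seurat 5.3.0, 30 dimensions, 2000 variable genes without Slc genes, 20 principal components, resolution 0.5). They were named from marker lists with at least 3 markers above the other cells and at least 1 among the 10 leading genes, the last of which was set after the clusters were seen. A ratio in a cluster needed at least 20 UMIs over both libraries. Gene positions are from GENCODE vM21 on GRCm38.

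Named genes are the 10 largest rises and falls in the same direction at both times, the 5 highest members, the highest of each substrate group, 3 genes on each side of 5 CPM, 3 genes per cluster with the largest fold, and the partner list, with further members of a group as context chosen after their values were seen. The members and lists were chosen with earlier results of these data known. The values of 3 genes are not reported here. Alternatives were TMM factors (edgeR 4.0.16), median-of-ratios factors, other filters on cells, CPM averaged over cells, thinning to 5000 UMIs, other level minimums, other cluster settings and weighted cluster shares.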

Additional observations from a re-analysis of the deposited data

Results flagged for a closer look

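Slc2a6, a glucose transporter of the Slc2 family, was left out of the members by its mean of 4.30 CPM, yet its level rose in both treated libraries. It had 0.60 CPM from 30 UMIs in untreated cells, 5.43 CPM at 24 h and 6.86 CPM at 48 h, or log2 ratios of 3.17 (interval 2.64 to 3.76) and 3.51 (interval 2.97 to 4.10).

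Slc20a1 moved in opposite directions in different clusters at 48 h. Against untreated cells of the same cluster, a log2 ratio of −1.99 (interval −2.28 to −1.71) was found in the colonocyte-like cluster 3 and 1.39 (interval 0.52 to 2.32) in the goblet-like cluster 4, where it rested on 16 and 40 UMIs. The difference was not tested, as there is 1 library per condition.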

How the results depend on the processing

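Counts and medians were recomputed under each alternative. The number of members at least 2-fold higher at 24 h was 0 and became 2 with TMM and 3 with median-of-ratios scaling, and 1 with at least 2000 UMIs per cell, with at most 10% mitochondrial UMIs, without the 5% of cells with most UMIs, with the mean over cells of CPM, with each cell thinned to 5000 UMIs and with a minimum mean of 1 CPM. The number at least 2-fold lower became 57 at 24 h and 35 at 48 h with a minimum mean of 1 CPM, and 13 and 6 with 20 CPM, where fewer genes were counted. Among the alternatives, shares of all genes were computed only for TMM scaling at 24 h and for weighted cluster shares. Whether members exceeded all genes at the other minimums can therefore not be read from these counts. The median log2 ratio at 24 h became −0.26 with TMM, −0.23 with median-of-ratios scaling and −0.35 with a minimum mean of 20 CPM. That at 48 h became −0.23 with each cell thinned to 5000 UMIs. No value of the 20 named members changed sign in 360 recomputations, but 122 of them lay outside the counting interval of the main value. These members were chosen as the largest ratios in the same libraries, so a change of sign was unlikely from the start. In the colonocyte-like cluster 43 to 54 members were at least 2-fold lower at 24 h and 19 to 28 at 48 h over the other cluster settings. The weighting of clusters was chosen after seeing the data. Depth per cell differed over 6-fold between the treated libraries, and with 1 library per condition the treatment and the library cannot be told apart. No paired analysis was possible because each group has 1 library and no test was made.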

Other observations

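Slc37a2, a sugar phosphate carrier below the minimum of 5 CPM, had 10.4 CPM in untreated cells, 0.66 CPM at 24 h and 0.47 CPM at 48 h, or log2 ratios of −3.98 and −4.48. Slc50a1, a sugar carrier that was highest in goblet-like cluster 5 with 155 CPM in untreated cells, had 140 CPM there at 24 h and 114 CPM at 48 h, while over all cells it had 68.2, 92.2 and 78.3 CPM.

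Outside the carriers, the metallothionein gene Mt2, which binds zinc and copper, had 47.2, 105 and 144 CPM, and its neighbour Mt1 400, 567 and 537 CPM. The kinase gene Stk39, which phosphorylates cation-chloride cotransporters, had 42.1, 52.9 and 86.7 CPM.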
